A study of Mus musculus with 9 samples.

Results

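The genes described here are 10 members of the BCL2 family, which set the threshold at which a cell enters apoptosis. They comprise the anti-apoptotic genes Bcl2, Bcl2l1, Bcl2l2 and Mcl1, the BH3-only genes Bcl2l11, Bmf, Bad and Bid, and the effectors Bax and Bak1. They were chosen by symbol, as the rows of the count table whose Ensembl identifier belongs to one of these names. The rule used no expression value, but the members were chosen with earlier results of these data known. All 10 symbols were found among the 48526 genes of the table, and all 10 passed the filter on low counts, as did 18858 genes in all. The cells were neural stem cells (NSCs) from the subependymal zone (SEZ), the neurogenic niche along the lateral ventricles, of adult C57BL/6 mice (C57BL/6J in the methods of the study) that were between 2 and 4 months old. They were grown as neurospheres with EGF and FGF, and differentiation was started on an adhesive substrate (Matrigel) without EGF and with FGF kept. For cells fixed soon after induction, the methods describe a first period after seeding in medium with both factors. Whether this also held for the cells of the RNA libraries is not stated there. RNA was taken when differentiation was started (0 h) and 1 h and 6 h later, which gave 9 libraries, 3 per time point, so every comparison is between earlier and later cells of the same unmodified genotype. The sources used here do not say whether replicates came from separate animals or cultures, and p-values therefore cover these libraries only. In the main fit they weigh a difference between time points against its variation from replicate to replicate, with differences in level between replicates removed.

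The family works at the outer membrane of the mitochondrion. Bax and Bak1 are the proteins that open pores in this membrane and release cytochrome c, which then assembles with Apaf1 into the apoptosome and activates caspase 9 and the executioner caspases. Bcl2, Bcl2l1 (BCL-XL), Bcl2l2 (BCL-W) and Mcl1 hold Bax and Bak1 in check. The BH3-only proteins occupy a groove on these guardians through a short helix, the BH3 domain, and so release the effectors, and some of them also activate Bax and Bak1 directly. In the adult SEZ many newborn cells die as they differentiate, and loss of Bax is known to increase the number of cells that survive in adult neurogenic niches.

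The BH3 domain is the stretch that all 10 genes share, and its coding sequence is shown for 5 members that carry the results below, 2 guardians, 2 BH3-only genes and 1 effector. Each line is 45 bases of coding sequence, 5′ to 3′ on the strand of the gene, from the longest complete coding transcript in GENCODE M21 on GRCm38 (mm10), and the capitals mark the 6 codons of the conserved core. The core was found by its first and its last 2 codons, so likeness at those positions is part of the choice.
Mcl1: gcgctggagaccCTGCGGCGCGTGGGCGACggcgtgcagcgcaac
Bcl2: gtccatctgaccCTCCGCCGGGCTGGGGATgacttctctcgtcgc
Bcl2l11: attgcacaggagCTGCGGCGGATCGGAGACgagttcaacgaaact
Bmf: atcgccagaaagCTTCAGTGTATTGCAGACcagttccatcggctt
Bax: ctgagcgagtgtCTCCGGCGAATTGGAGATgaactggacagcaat

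The Mcl1 stretch lies in exon 1 of 3 at chr3:95659424-95659468 on the plus strand. That of Bcl2 lies in exon 1 of 2 at chr1:106712569-106712613 on the minus strand, that of Bcl2l11 in exon 3 of 4 at chr2:128147138-128147182 on the plus strand, that of Bmf in exon 4 of 5 at chr2:118545094-118545138 on the minus strand, and that of Bax in exon 3 of 6 at chr7:45465991-45466035 on the minus strand. All of these exons are coding at these positions. Over the 18 bases of the core, Bcl2l11 and Bax share 14 bases, as do Mcl1 and Bcl2l11, whereas Bcl2 and Bmf share 8. Bcl2l11 and Bmf, both BH3-only genes, share 12 bases of the core and 25 of the 45 bases.

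Total counts per library were between 65871454 and 105592597. The count of a member in a library was between 222 for Bmf and 20942 for Mcl1, and counting error alone amounts to 6.71% at the lowest count of Bmf and to 0.866% at the lowest count of Mcl1. Values are given as CPM (the count of a gene scaled to a fixed library size), scaled with TMM factors that were all between 0.97 and 1.02. The 10 NSC markers were expressed in every time point, with a summed level between 6780 and 9700 CPM. Among them, the mean of Nes was 1990 CPM at 0 h and 1480 CPM at 6 h, and that of Vim 2620 and 2170 CPM. The mean of Fabp7 was lower at 6 h as well. Those of Sox2, Sox9, Slc1a3, Egfr, Msi1, Pax6 and Prom1 were higher, with 45.3 CPM at 0 h and 71.2 CPM at 6 h for Msi1. The 5 microglia markers summed to at most 0.526 CPM, the 4 markers of mature oligodendrocytes to at most 2.49 CPM, and Hbb-bs and Hba-a1 of red blood cells were at 0 in all libraries. The 4 markers of mature astrocytes summed to between 194 and 252 CPM at 0 h and between 234 and 293 CPM at 6 h, and the 4 ependymal markers to between 47.3 and 88.5 CPM at 0 h and between 38.5 and 60.1 CPM at 6 h. The 6 neuroblast and neuron markers summed to between 962 and 1480 CPM at 0 h and between 997 and 1560 CPM at 6 h, and the 7 markers of endothelial cells and pericytes to between 6.03 and 15.7 CPM at 0 h and between 5.45 and 8.73 CPM at 6 h. Single markers shifted more than these sums. Picked after their values were seen, the neuronal Syt1 was at 10.5 to 33.5 CPM at 0 h and 39.8 to 113 CPM at 6 h, Rbfox3 at 0.673 to 3.68 CPM and 1.53 to 7.47 CPM, and the pericyte gene Pdgfrb at 0.0405 to 0.387 CPM and 0.627 to 4.96 CPM. The genes just named all rose, which was not so for the other neuronal and vascular markers. Mean levels of Dcx, Stmn2, Flt1, Rgs5 and Kcnj8 were lower at 6 h than at 0 h, with 7.66 CPM at 0 h and 3.92 CPM at 6 h for Flt1. Those of Snap25, Pecam1, Cdh5 and Cldn5 were higher at 6 h. Most of the neuroblast and neuron sum was Map2, at 925 to 1460 CPM at 0 h. The part of these marker shifts in the results below was not tested. In bulk RNA, fewer cells of a type and less RNA of a gene per cell cannot be told apart.

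In undifferentiated NSCs the highest of the 10 members were Mcl1, the short-lived guardian, and Bax. Levels of different genes are compared here as CPM per kilobase of annotated exon. At 0 h Mcl1 stood at 75.3 ± 3.34 (SD, n = 3), which was 39.3% ± 1.27 of the summed level of the 10 genes, and Bax at 63.7 ± 9.24, which was 33.1% ± 2.48. Bak1, the other effector, followed at 14.7 CPM per kb and Bcl2l1 at 13.1, and the ranges of these 2 genes overlapped. Bcl2l2 and Bad, at 7.45 and 6.97 CPM per kb, overlapped as well. Bcl2, Bid and Bcl2l11 formed a group between 3.06 and 3.85 CPM per kb in which neighbours overlapped, and Bmf was lowest with 0.656 CPM per kb. The top of this order depends on the length used. With the longest annotated transcript in place of all exons, Bax came first at 0 h with 91.3 CPM per kb and Mcl1 second with 75.3, and Bcl2l1 stood above Bak1, with 23.5 against 14.8.

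**Figure D1:**
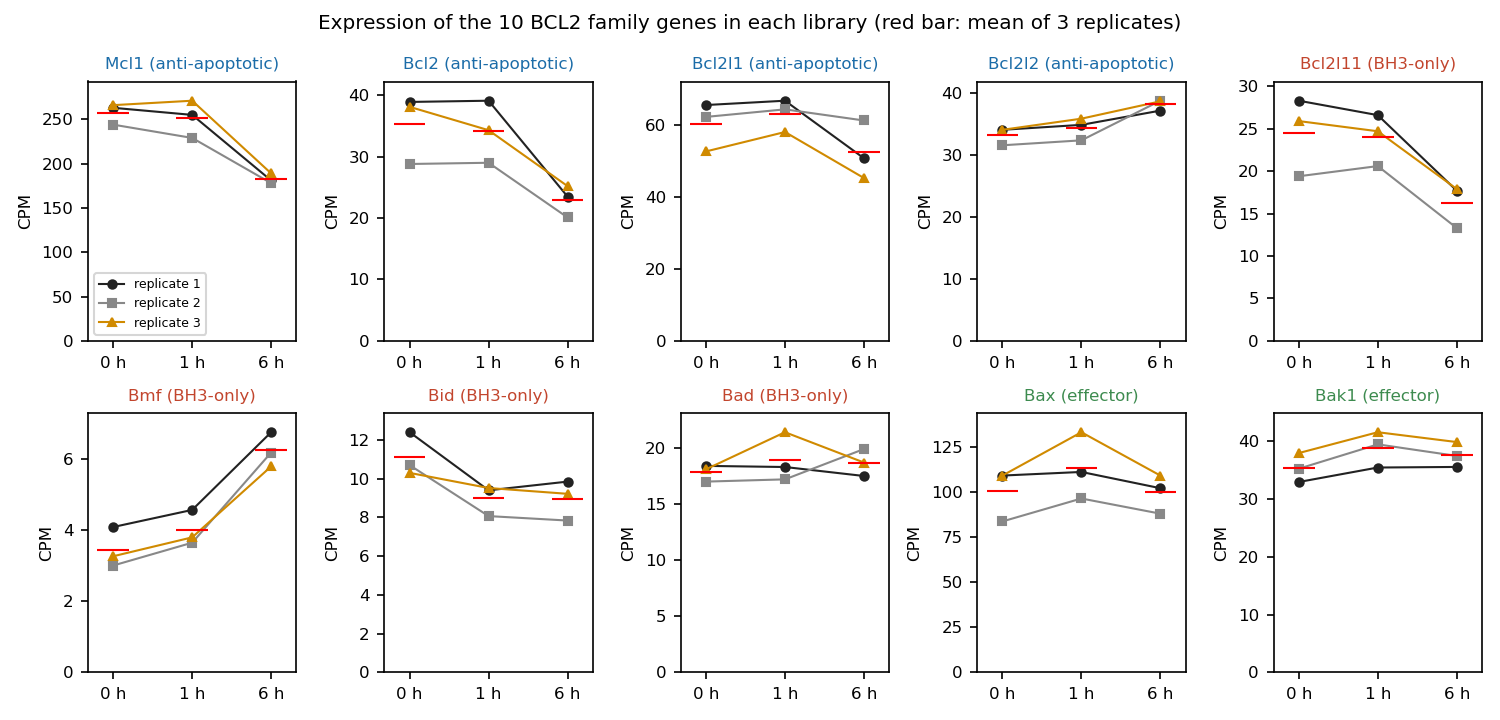
CPM (y axis, from 0) of each of the 10 genes at the 3 time points (x axis); points are libraries, lines join libraries with the same replicate number and red bars are means of 3 replicates. Mcl1, Bcl2 and Bcl2l11 lay lower at 6 h than at 0 h in 3 of 3 replicates, Bmf lay higher, and Bad and Bak1 overlapped between time points.

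After 6 h of differentiation, 3 of the 4 guardians were lower than at 0 h, and among them Mcl1 fell by 29.0% and Bcl2 fell by 34.5%. The BH3-only genes went different ways, in that Bcl2l11 (BIM) fell by 33.4% and Bmf rose by 81.7%, and neither effector passed the test. In all, 2 of 10 members rose (Bmf and Bcl2l2) and 5 of 10 fell (Bcl2, Mcl1, Bcl2l11, Bid and Bcl2l1) in edgeR's quasi-likelihood test with the replicate number as a block, at a Benjamini-Hochberg adjusted p under 0.05. Over all tested genes the same rule called 34.9%, of which 17.4% were higher and 17.5% lower, and it called 46.8% of the 11025 genes expressed at least as highly as Bmf (22.3% higher and 24.6% lower). The median log2 fold change was -0.11 for the members and 0 for all tested genes, and the median absolute value was 0.26 for the members and 0.20 for all. Without the block, 2 of 10 members were called, Bmf higher and Mcl1 lower, against 2.42% of all tested genes. DESeq2 without the block called 5 members, the same 2 and Bcl2, Bcl2l11 and Bcl2l2.

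Mcl1, on chromosome 3, was the most abundant member. It was at 263, 244 and 266 CPM in replicates 1 to 3 at 0 h, at 255, 229 and 271 CPM at 1 h, and at 181, 178 and 189 CPM at 6 h. Every 6 h library lay below every earlier library, and the 1 h libraries spread around those of 0 h. The log2 fold change at 6 h against 0 h was -0.49 ± 0.05 (SE; adjusted p = 8.1e-06 by edgeR with the block and 0.0249 without it). Among the guardians it was the only one whose fall passed the edgeR test under both designs, and it was called in all 12 refits that each dropped 1 library or 1 replicate number.

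Bcl2, the founding member of the family, was measured at 38.9, 28.8 and 38.1 CPM at 0 h, at 39.1, 29.0 and 34.3 CPM at 1 h, and at 23.5, 20.1 and 25.2 CPM at 6 h. Replicate 2 was the lowest at each time point, and even so the 6 h libraries did not overlap with the 0 h libraries. The log2 fold change at 6 h against 0 h was -0.61 ± 0.06 with an adjusted p of 1.44e-05 by edgeR with the block. Without the block the adjusted p was 0.0831 by edgeR and 0.00678 by DESeq2. An annotated antisense transcript, D630008O14Rik, shares 558 exonic bases with Bcl2, but it had at most 0.00477 CPM on average at any time point.

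The other 2 guardians moved less and in opposite directions. Bcl2l1, which encodes BCL-XL, a survival factor of differentiating neurons, was at 65.6, 62.3 and 52.7 CPM at 0 h and at 50.8, 61.3 and 45.3 CPM at 6 h, so the groups overlapped although each replicate was lower at 6 h. Its log2 fold change was -0.20 ± 0.07 (adjusted p = 0.0319 by edgeR with the block, 0.49 without it). The call was lost in 7 of 12 fits that left out libraries, namely those without 0 h replicate 1, 2 or 3, without 6 h replicate 1 or 3, and without replicate number 1 or 3, and over the 12 fits the log2 fold change ranged from -0.29 to -0.11 and the adjusted p reached 0.365. Bcl2l2, which encodes BCL-W, was at 34.1, 31.6 and 34.1 CPM at 0 h and at 37.2, 38.8 and 38.7 CPM at 6 h. All its 6 h libraries lay above all its 0 h libraries, and the log2 fold change was 0.20 ± 0.06 (adjusted p = 0.012 by edgeR with the block, 0.182 without it). Without 0 h replicate 2 or 3, without 6 h replicate 2, or without replicate number 2, the adjusted p reached up to 0.146 while the log2 fold change stayed between 0.16 and 0.25. Gm20521, an annotated gene on the same strand that shares 594 exonic bases with Bcl2l2, was listed at 0 CPM throughout.

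Among the BH3-only genes, Bcl2l11 encodes BIM, which binds all guardians and can be induced when growth factors are removed. It was at 28.3, 19.4 and 25.9 CPM at 0 h, at 26.6, 20.6 and 24.7 CPM at 1 h, and at 17.7, 13.3 and 17.9 CPM at 6 h. As for Bcl2, replicate 2 was the lowest throughout and the 6 h libraries lay below all 0 h libraries. The log2 fold change at 6 h was -0.59 ± 0.06 (adjusted p = 1.67e-05 by edgeR with the block). Without the block the adjusted p was 0.128 by edgeR and 0.0288 by DESeq2.

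Bmf, whose product can be held on the cytoskeleton until a stress signal frees it, went the other way. It was at 4.08, 3.00 and 3.26 CPM at 0 h, at 4.56, 3.64 and 3.79 CPM at 1 h, and at 6.74, 6.17 and 5.78 CPM at 6 h. Each replicate was higher at each step, and the 6 h libraries lay above all others. At 6 h against 0 h the log2 fold change was 0.86 ± 0.09, or 1.82-fold, with an adjusted p of 2.16e-05 by edgeR with the block and 0.0426 without it, the largest difference among the 10 members and also the member with the lowest level.

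Bid, which caspase 8 cleaves to link death receptors to mitochondria, was at 12.4, 10.7 and 10.3 CPM at 0 h, at 9.40, 8.07 and 9.52 CPM at 1 h, and at 9.85, 7.84 and 9.22 CPM at 6 h. At 1 h the values already lay near those of 6 h, and both later groups lay below the 0 h group without overlap. At 6 h against 0 h the log2 fold change was -0.31 ± 0.08 (adjusted p = 0.00859 by edgeR with the block, 0.278 without it), a call lost without 0 h replicate 1 or 2, without 6 h replicate 2 and without replicate number 1 or 2. Over the 12 fits that left out libraries the log2 fold change ranged from -0.40 to -0.24 and the adjusted p reached 0.144. Bid shares 628 exonic bases with the antisense gene Bcl2l13, which was at 118 CPM at 0 h, 113 CPM at 1 h and 116 CPM at 6 h. The libraries were stranded, but the strand setting of the counting is not given in the sources used here, so how reads over this stretch were assigned could not be checked.

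Bad, which growth factor kinases hold inactive by phosphorylation, was at 18.4, 17.0 and 18.1 CPM at 0 h, at 18.3, 17.2 and 21.4 CPM at 1 h, and at 17.5, 19.9 and 18.7 CPM at 6 h. The groups overlapped, and the 95% interval of the log2 fold change at 6 h against 0 h was -0.10 to 0.24 (adjusted p = 0.535 by edgeR with the block). It shares 524 exonic bases with the antisense gene Gpr137, which was at 33.1 CPM at 0 h and 40.6 CPM at 6 h.

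The effectors ended at 6 h close to where they had started. Bax was at 109, 83.6 and 109 CPM at 0 h, at 111, 96.3 and 133 CPM at 1 h, and at 102, 87.9 and 109 CPM at 6 h. The spread between replicates was wider than any shift with time, with replicate 2 the lowest at each time point. The log2 fold change at 6 h against 0 h was -0.01 with a 95% interval of -0.13 to 0.11 (adjusted p = 0.90 by edgeR with the block). Bak1 was at 32.9, 35.2 and 37.9 CPM at 0 h, at 35.4, 39.4 and 41.5 CPM at 1 h, and at 35.5, 37.4 and 39.8 CPM at 6 h, higher than at 0 h in 3 of 3 replicates but with overlapping groups. Its log2 fold change at 6 h was 0.09 with a 95% interval of -0.02 to 0.20 (adjusted p = 0.196). The antisense gene Ggnbp1, which shares 614 exonic bases with Bak1, was at 2.35 CPM at 0 h and 2.9 CPM at 6 h, and Gm45808, which shares 192 same-strand bases with Bax, was listed at 0 CPM.

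**Figure D2:**
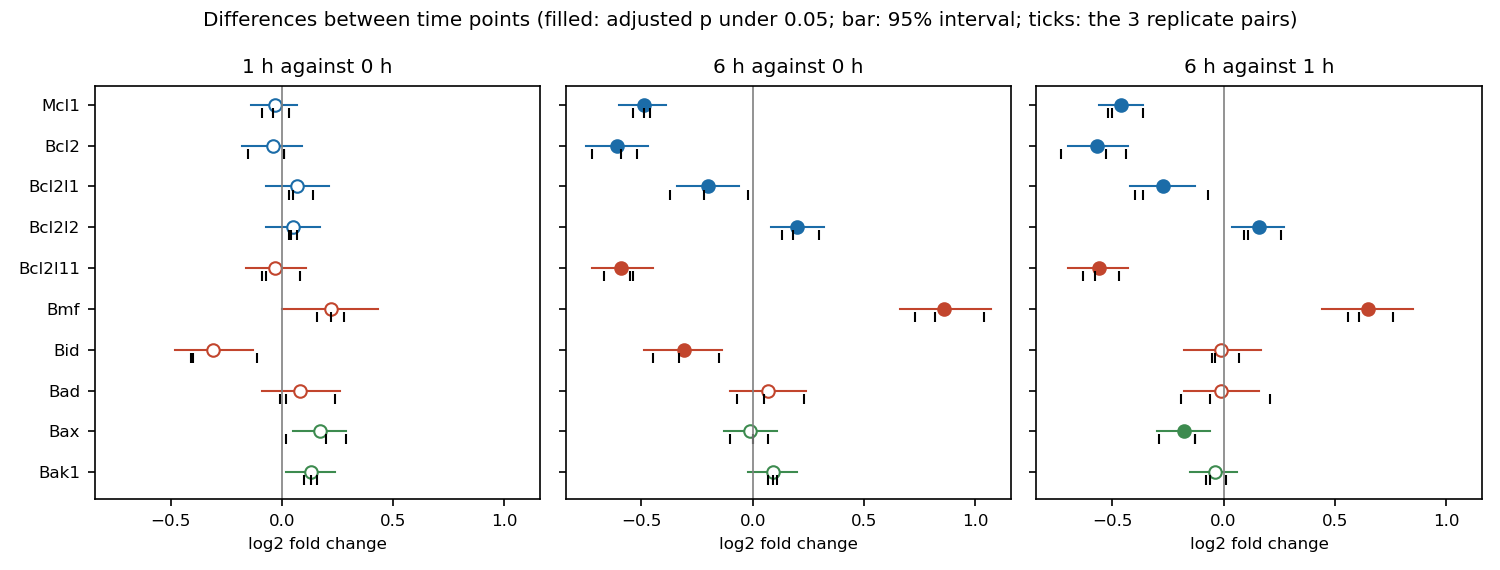
Log2 fold change (x axis) of the 10 members in the 3 comparisons, with 95% intervals as bars, filled points where the adjusted p was under 0.05 with the replicate block, and ticks for the 3 replicate pairs. No point is filled for 1 h against 0 h, and 7 are filled in each of the comparisons of 6 h; at 6 h against 0 h they range from -0.61 for Bcl2 to 0.86 for Bmf.

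At 1 h, none of the 10 members passed edgeR's test with the block, against 3.51% of all tested genes (1.36% higher and 2.14% lower), and without the block 0 members were called against 0.0424% of all. At an unadjusted p under 0.05 there were 4 members, Bid, Bax, Bak1 and Bmf, while 18.2% of all tested genes reached that level. Bid came closest, with a log2 fold change of -0.31 ± 0.08 and an adjusted p of 0.0593, and its 1 h libraries lay below all 0 h libraries. DESeq2 with the block called 1 member, Bid, and DESeq2 without the block called 0. The call for Bid was also made without 1 h replicate 3, without 6 h replicate 3 and without replicate number 3, and the adjusted p over all fits with the block was between 0.0187 and 0.336. Bax and Bak1 were higher at 1 h in 3 of 3 replicates, by 0.17 (adjusted p = 0.126) and 0.13 (adjusted p = 0.183) on the log2 scale, and their groups overlapped. For the guardians the 95% intervals at 1 h were narrow and included 0, from -0.14 to 0.07 for Mcl1 from -0.18 to 0.09 for Bcl2, from -0.07 to 0.21 for Bcl2l1 and from -0.07 to 0.17 for Bcl2l2. Those of Bcl2l11 (-0.16 to 0.11) and Bad (-0.09 to 0.26) included 0 as well, with adjusted p of 0.869 and 0.628 by edgeR with the block.

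Between 1 h and 6 h, Bcl2l2 and Bmf rose and Mcl1, Bcl2, Bcl2l11, Bcl2l1 and Bax fell, so that 2 of 10 members were called higher and 5 lower by edgeR with the block. All tested genes gave 35.6%, with 18.0% higher and 17.5% lower, and the genes expressed at least as highly as Bmf gave 47.8%. Without the block 1 member was called, Mcl1, against 2.14% of all tested genes. This comparison shares its 6 h libraries with the one against 0 h and its 1 h libraries with the one at 1 h, so the 3 are not independent. The log2 fold changes were -0.46 ± 0.05 for Mcl1 (adjusted p = 1.56e-05), -0.57 ± 0.06 for Bcl2 (adjusted p = 2.88e-05), -0.56 ± 0.06 for Bcl2l11 (adjusted p = 2.62e-05) and 0.65 ± 0.09 for Bmf (adjusted p = 0.000181). Each of these 4 had 6 h libraries apart from its 1 h libraries and was called in 12 of 12 fits that left out libraries. Bcl2l1 fell by 0.27 on the log2 scale (adjusted p = 0.00644), a call lost without 6 h replicate 1 and without replicate number 1, where the adjusted p reached 0.0643. Bax fell by 0.18 on the log2 scale (adjusted p = 0.022) with overlapping groups, and lost the call without 1 h replicate 2 or 3, without 6 h replicate 1 or 3, and without replicate number 2 or 3 (highest adjusted p 0.0937). Bcl2l2 was higher by 0.16 on the log2 scale (adjusted p = 0.043) and was called in 3 of 12 such fits, while the other fits reached an adjusted p of 0.312 at log2 fold changes that stayed between 0.11 and 0.19. Bid and Bad were not called between 1 h and 6 h, each with a log2 fold change of -0.01 and a 95% interval of -0.18 to 0.17 for Bid and -0.18 to 0.16 for Bad, and neither was Bak1, with -0.04 (95% interval -0.15 to 0.06, adjusted p = 0.529).

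Summed by role, the guardians were lower at 6 h, mostly through Mcl1, and the ranges of the other classes overlapped between time points. The summed level of the 4 anti-apoptotic genes was 103, 95.3 and 101 CPM per kb in replicates 1 to 3 at 0 h, 101, 91.6 and 104 at 1 h, and 74.9, 76.4 and 76.7 at 6 h. The 6 h libraries lay below all earlier libraries. Mcl1 alone went from 75.3 to 53.5 CPM per kb on average between 0 h and 6 h, while Bcl2l2 went from 7.45 to 8.57. The 4 BH3-only genes summed to 15.0, 12.6 and 13.8 CPM per kb at 0 h and to 13.1, 12.8 and 13.3 at 6 h, so the groups overlapped. The effectors summed to 82.9, 67.7 and 84.7 CPM per kb at 0 h, to 85.0, 77.5 and 101 at 1 h, and to 79.2, 71.3 and 85.4 at 6 h. Mcl1 made up 39.3% of the family at 0 h, 36.8% at 1 h and 31.9% at 6 h, and Bax 33.1%, 35.7% and 37.5%. These sums and shares are descriptions, were not tested and depend on the choice of the 10 members. They leave out the BH3-only genes Pmaip1 and Bbc3 and the Bax relative Bok, described below. The means of these 3 genes were 36.7, 18.2 and 19.8 CPM at 0 h and 24.8, 21.5 and 14.4 CPM at 6 h. Bcl2l11, the highest BH3-only member in CPM at 0 h, averaged 24.5 CPM.

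**Figure D3:**
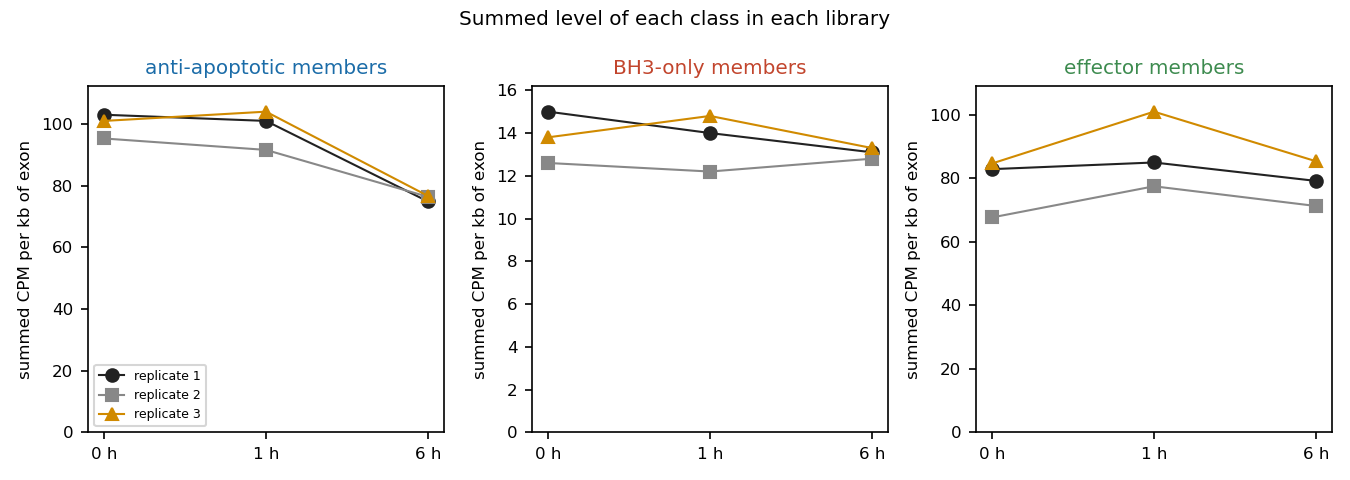
Summed level of the anti-apoptotic, BH3-only and effector members in CPM per kb of exon (y axis, from 0; the scales differ) in each library at the 3 time points (x axis), with lines joining libraries of the same replicate number. The anti-apoptotic sum drops from between 95.3 and 103 at 0 h to between 74.9 and 76.7 at 6 h, while the sums of the other classes overlap between 0 h and 6 h.

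Ratios taken within a library do not depend on its scaling, and they show which members moved apart. Mcl1 to Bax, guardian to effector, was 1.11, 1.35 and 1.13 at 0 h, 1.06, 1.10 and 0.943 at 1 h, and 0.821, 0.934 and 0.804 at 6 h. It was lower at 6 h than at 0 h in 3 of 3 replicates without overlap. With the longest transcript as length the ratio was between 0.775 and 0.941 at 0 h and between 0.561 and 0.652 at 6 h, so Bax then stood above Mcl1 in every library, whereas the fall between time points was the same by construction.

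Bcl2 and its ligand Bcl2l11 fell side by side. Their ratio was 1.20, 1.30 and 1.29 at 0 h, 1.29, 1.23 and 1.22 at 1 h, and 1.16, 1.33 and 1.24 at 6 h, with no separation of the time points. The ratio of Mcl1 to Bcl2l11 was between 21.8 and 29.6 at 0 h and between 24.0 and 31.5 at 6 h, and those groups overlapped too. Within the BH3-only class Bmf and Bcl2l11 moved apart, which restates their opposite changes. Bad, the highest member of this class per kilobase, averaged 6.97 CPM per kb at 0 h and 7.31 at 6 h. Bmf to Bcl2l11 was 0.220, 0.236 and 0.193 at 0 h, 0.262, 0.270 and 0.235 at 1 h, and 0.581, 0.710 and 0.494 at 6 h, and every 6 h library lay above every earlier one.

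**Figure D4:**
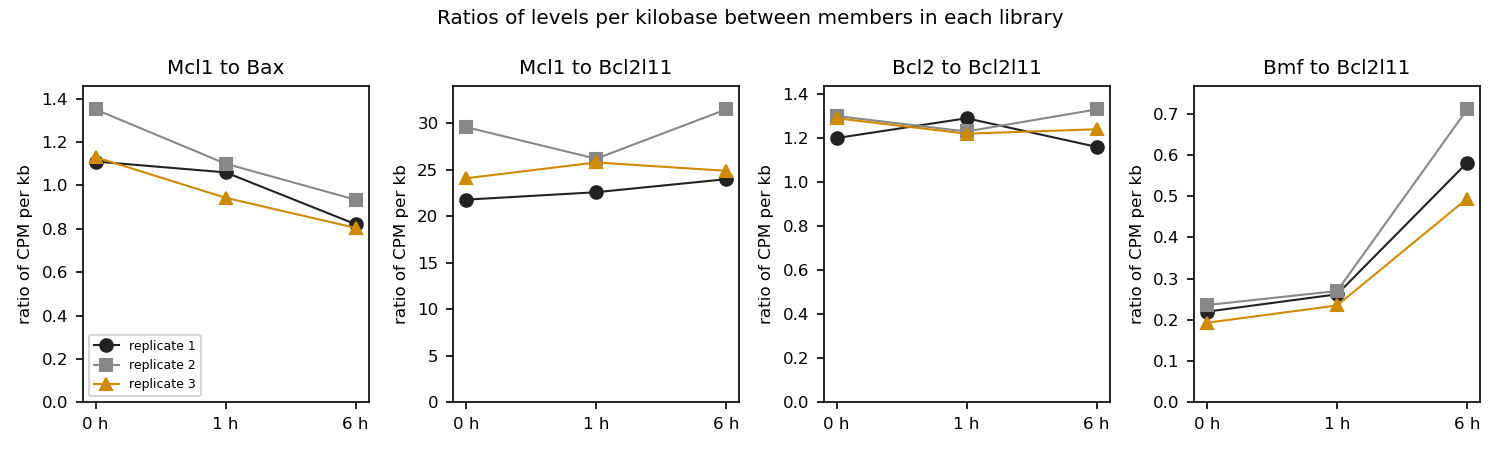
Ratios of levels per kb (y axis, from 0; the scales differ) between pairs of members in each library at the 3 time points (x axis), with lines joining libraries of the same replicate number. Mcl1 to Bax falls to between 0.804 and 0.934 at 6 h, Bcl2 to Bcl2l11 stays between 1.16 and 1.33 in all libraries, and Bmf to Bcl2l11 rises to between 0.494 and 0.710.

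Levels also differed between replicate numbers. Averaged over the 3 time points, replicate 2 was lowest for 8 of the 10 members, with a ratio of the highest to the lowest replicate of 1.36 for Bcl2l11, 1.31 for Bax, 1.30 for Bcl2 and 1.06 for Bcl2l2. The exceptions were Bcl2l1, with replicate 3 lowest, and Bak1, with replicate 1 lowest. For Bmf and Bad replicate 2 was nearly level with another, at 4.27 against 4.28 CPM in replicate 3 and 18.0 against 18.1 CPM in replicate 1. For Bcl2, Bcl2l11 and Bax the spread between replicates is what the block removes. The common coefficient of biological variation over all genes was 0.0627 with the block and 0.277 without it. What libraries with the same number share is not stated in the sources used here.

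Other genes of the BCL2 family, taken from a list of 14, gave 9 that could be tested. At 6 h against 0 h, 2 of 9 were called higher and 3 lower, where all tested genes gave 17.4% and 17.5%. Without the block 0 of the 9 were called by edgeR, against 2.42% of all tested genes. Pmaip1 (NOXA), the BH3-only ligand most selective for Mcl1, was at 53.5, 35.1 and 21.5 CPM at 0 h, at 36.3, 25.2 and 15.2 CPM at 1 h, and at 35.7, 25.4 and 13.2 CPM at 6 h. The groups overlapped because the replicates differed more than the time points, yet each replicate fell at 1 h. The log2 fold change was -0.51 ± 0.06 at 1 h (adjusted p = 0.000439 by edgeR with the block, 1.0 without it) and -0.58 ± 0.06 at 6 h (adjusted p = 1.42e-05 with the block, 0.607 without it), and at 6 h against 1 h it was -0.07 (adjusted p = 0.436). Bbc3 (PUMA), a p53 target that binds every guardian, was at 20.3, 14.2 and 20.1 CPM at 0 h, at 19.3, 15.6 and 24.0 CPM at 1 h, and at 21.4, 18.2 and 24.8 CPM at 6 h. Its log2 fold change was 0.11 ± 0.07 at 1 h (adjusted p = 0.474) and 0.24 ± 0.07 at 6 h (adjusted p = 0.0193 with the block, 0.628 without it), with overlapping groups, and the call at 6 h was lost without 0 h replicate 2 or 3, without 6 h replicate 2 and without replicate number 2 (highest adjusted p 0.178). With GC and length trends removed and the block kept, the log2 fold change of Bbc3 at 6 h was 0.12 and was not called. Bok, a relative of Bax and Bak1, fell by 0.45 on the log2 scale at 6 h against 0 h (adjusted p = 0.00139 with the block, 0.625 without it). The other 2 calls, Hrk lower and Bcl2l15 higher, concern genes with a mean of 0.433 and 0.218 CPM. Bcl2a1a, Bcl2a1b and Bcl2a1d had no count in any library, and Bcl2l10 and Bcl2l14 had a total of 7 and 8 counts, so these 5 were not tested. At 1 h against 0 h, Pmaip1 was the 1 called gene of the 9, where 3.51% of all tested genes were called. Between 1 h and 6 h, 1 was called higher and 2 lower, where all tested genes gave 18.0% and 17.5%. Bok fell by 0.63 on the log2 scale (adjusted p = 0.00013 with the block, 0.441 without it). The other 2 of these calls, Bcl2l15 higher and Bik lower, concern genes with a mean of 0.218 and 0.105 CPM.

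Downstream of the mitochondrion, 23 genes of the apoptosome, the caspases and their inhibitors were all tested, and at 6 h against 0 h 3 were called higher and 6 lower, with a median log2 fold change of -0.05. That is near the 34.9% of all tested genes, and without the block edgeR called 0 of the 23, against 2.42% of all tested genes. Casp6, an executioner caspase, was at 16.9, 16.6 and 17.8 CPM at 0 h and at 21.5, 24.0 and 22.7 CPM at 6 h, so the groups were apart, with a log2 fold change of 0.41 ± 0.07 (adjusted p = 0.000751 with the block, 0.0796 without it). The death receptor genes Casp8 and Fadd fell by 0.39 and 0.26 on the log2 scale (adjusted p = 0.0139 and 0.0132 with the block, 0.884 and 0.268 without it). Those 2 calls were lost without 0 h replicate 1 or 2, without 6 h replicate 2 and without replicate number 1 or 2, and that of Fadd also without 6 h replicate 1. The highest adjusted p was 0.137 for Casp8 and 0.17 for Fadd. At 6 h against 1 h, where all tested genes gave 35.6%, 3 were called higher and 4 lower, among them Casp9, the initiator of the apoptosome, with a log2 fold change of 0.35 ± 0.06 (adjusted p = 0.00123), and Birc2, an inhibitor of apoptosis, with 0.35 ± 0.06 (adjusted p = 0.000551). Neither was called without the block (adjusted p = 0.243 and 0.0749 by edgeR). Casp6 was again higher, by 0.36 on the log2 scale, and Casp8 fell by 0.38 (adjusted p = 0.00203 and 0.0167 with the block, 0.117 and 0.898 without it). The call for Casp8 was also lost without 1 h replicate 2, without 6 h replicate 2 and without replicate number 2 (highest adjusted p 0.116). At 1 h against 0 h, 0 of the 23 were called by edgeR with the block, against 3.51% of all tested genes. An unadjusted p under 0.05 was reached by 4 of the 23 and by 18.2% of all tested genes.

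Of 23 partners and regulators of the members, 6 were called higher and 3 lower at 6 h against 0 h, and 4 higher and 8 lower at 6 h against 1 h. All tested genes gave 34.9% and 35.6%. Without the block edgeR called 1 of the 23 in either comparison, Foxo4, against 2.42% and 2.14% of all tested genes. Pim3, a kinase that can phosphorylate Bad, was the 1 of the 23 called at 1 h, where 3.51% of all tested genes were called. It was at 17.3, 9.31 and 20.2 CPM at 0 h, at 52.2, 35.0 and 66.6 CPM at 1 h, and at 25.0, 17.7 and 25.0 CPM at 6 h. All 1 h libraries lay above all others, and the log2 fold change was 1.73 ± 0.09 at 1 h against 0 h (adjusted p = 6.05e-07 by edgeR with the block, 0.324 without it) and 0.58 ± 0.09 at 6 h against 0 h (adjusted p = 0.000446 with the block, 0.448 without it). Pim2, a kinase of the same family, rose by 0.32 on the log2 scale at 6 h against 0 h (adjusted p = 0.00213 with the block, 0.455 without it). Mapk8, which encodes the kinase JNK1 that can phosphorylate BIM and BMF, was at 71.7, 65.0 and 61.1 CPM at 0 h and at 57.8, 49.9 and 50.0 CPM at 6 h, a log2 fold change of -0.33 ± 0.05 (adjusted p = 0.000245 with the block, 0.161 without it). Between 1 h and 6 h, Pim3 fell by 1.15 and Mapk8 fell by 0.39 on the log2 scale (adjusted p = 1.71e-06 and 7.11e-05 with the block, 0.103 and 0.111 without it).

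Foxo4 belongs to the FOXO transcription factors, which are known to activate Bcl2l11 when growth factor signalling drops. It was at 29.2, 27.7 and 31.1 CPM at 0 h, at 31.0, 29.2 and 33.5 CPM at 1 h, and at 45.0, 43.2 and 41.0 CPM at 6 h. The 6 h libraries lay above all others, with a log2 fold change of 0.56 ± 0.06 against 0 h (adjusted p = 2.64e-05 by edgeR with the block, 0.0198 without it) and of 0.46 ± 0.06 against 1 h (adjusted p = 0.000109 with the block, 0.0343 without it). Foxo1 rose between 1 h and 6 h by 0.40 ± 0.07 on the log2 scale (adjusted p = 0.000516 with the block, 0.547 without it). Among Foxo1, Foxo3 and Foxo4, Foxo3 had the highest mean, 104 CPM, and was not called in any comparison, with or without the block. Its log2 fold change was 0.04 at 6 h against 0 h (adjusted p = 0.654 by edgeR with the block). It was -0.11 at 1 h against 0 h and 0.15 at 6 h against 1 h (adjusted p = 0.4 and 0.088). The FOXO motif TGTTTAC was searched on both strands in RefSeq promoters of GRCm38.p6, from 250 bases before to 50 after each start, and 3.65% of 32851 promoters held it. Of the 16 promoters of the 10 members, 1 held it, that of Bcl2l11, at chr2:128125800-128125828 on the plus strand. It is shown with its flanks as the only match among the member promoters.
Bcl2l11 promoter: aagacactaggGTAAACAcgccggggtgg

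The capitals mark the motif, which reads on the opposite strand and starts at position -227 from the gene start. The match describes the letters in this window and is not evidence of a bound site. Of the other motifs searched, the E-box CACGTG was in 1 of the 16 member promoters, that of Bax, and in 7.15% of all promoters. The cAMP response element TGACGTCA and the AP-1 site TGAGTCA were in 0 of the 16.

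**Figure D5:**
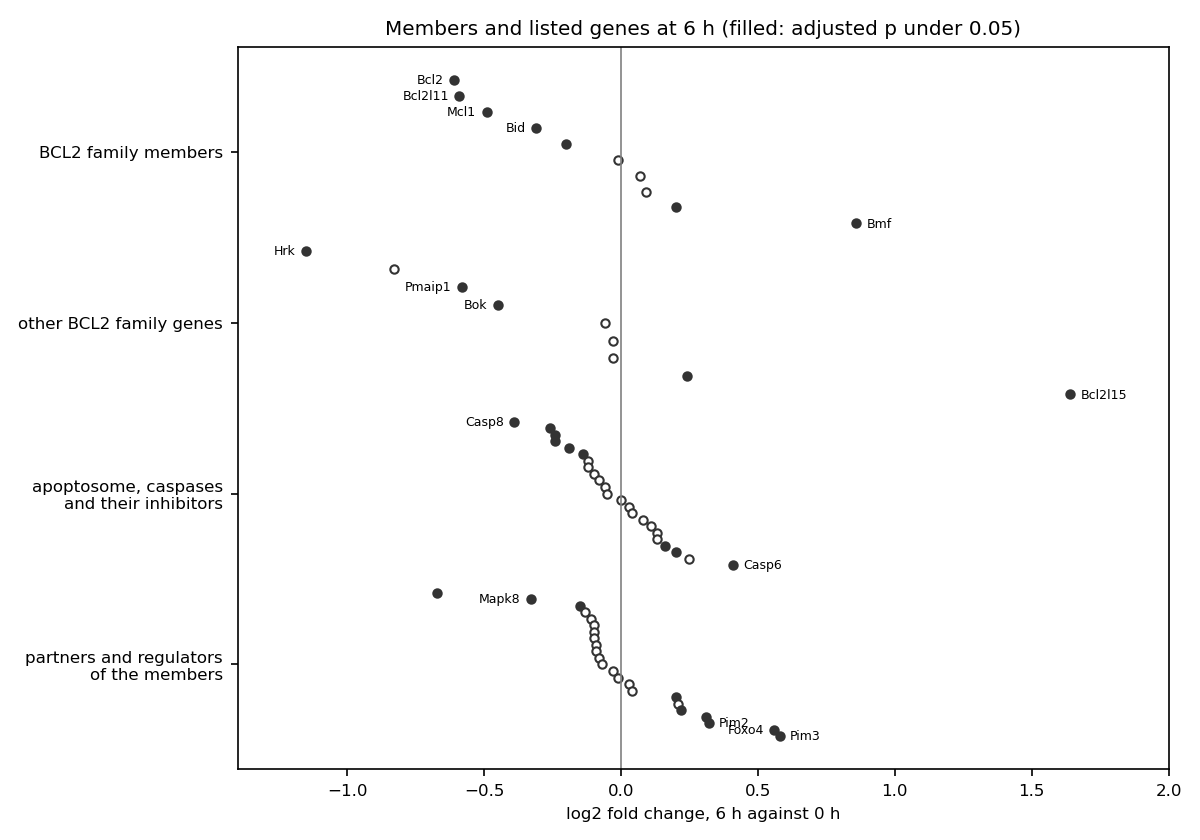
Log2 fold change at 6 h against 0 h (x axis) of the 10 members and of the tested genes of the 3 lists (rows), 1 point per gene, filled where the adjusted p was under 0.05 with the replicate block. Filled points are named for genes described in the text with an absolute value of at least 0.3. Bmf at 0.86 and Bcl2 at -0.61 mark the ends of the members, and most genes of the apoptosome and of the partners lie near 0.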

How the data were processed

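RNA-seq of 9 libraries (0 h, 1 h and 6 h, 3 replicates each) was analysed. The authors aligned paired-end reads of 125 bases from stranded mRNA libraries to mm10 (GRCm38) with STAR 2.5.3a, which also gave the deposited raw counts per Ensembl gene. The members and the gene lists were chosen with earlier results of these data known. The counts entered edgeR 4.0.16 in R 4.3.3 (filterByExpr with minimum count 10 and minimum total 15, TMM, glmQLFit and glmQLFTest, two-sided, all 9 libraries, replicate number as a block) and Benjamini-Hochberg adjustment over 18858 genes at 0.05. The block was in the main fit because libraries are paired by the replicate number in their labels, which follows the letter in their titles. After removal of time point means, libraries with the same number correlated at 0.733 to 0.800 (9 pairs) and others at -0.462 to -0.314 (18 pairs). Removing these means makes the remaining values within a time point cancel out, so the negative correlations follow from the positive ones and are no separate evidence. DESeq2 1.42.0 was run as an alternative, with and without the block. Standard errors were derived from the F statistic. Levels between genes are CPM per kilobase of merged GENCODE M21 exons. BH3 stretches were found by the spacing of the conserved core in the reading frame of the longest coding transcript, with 1 match per member. All 10 members were named in each comparison, and from each list the up to 4 called genes that changed most, averaged 1 CPM or more and moved one way in all 3 replicates, plus Bbc3 and Pmaip1. Hrk, Bcl2l15, Bik and Foxo3 were added after their values were seen. A gene that the rule selects is not reported here. Simulated counts with 200 altered genes served to check the fit. Alternatives were other scalings, filters, thresholds and library subsets, and GC content and length correction. Intervals and counting errors cover these libraries only.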

Additional observations from a re-analysis of the deposited data

Results flagged for a closer look

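The differences of Bcl2l1 and Bax from 0 h had opposite signs at 1 h and at 6 h, and the difference between 6 h and 1 h was called by edgeR with the block. For Bcl2l1 the log2 fold change was 0.07 at 1 h against 0 h and -0.20 at 6 h against 0 h, and that of 6 h against 1 h was -0.27 (adjusted p = 0.00644 with the block, 0.334 without it). For Bax the corresponding values were 0.17, -0.01 and -0.18 (adjusted p = 0.022 with the block, 0.587 without it). Neither gene was called at 1 h against 0 h (adjusted p = 0.618 and 0.126), and Bax was not called at 6 h against 0 h (adjusted p = 0.90), where its sign changed in several refits. In both genes the groups overlapped, and all 3 replicates were lower at 6 h than at 1 h.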

How the results depend on the processing

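The falls of Mcl1, Bcl2 and Bcl2l11 and the rise of Bmf at 6 h passed the threshold in 19 of 19 fits with the block, against 0 h and against 1 h. The other calls depended on more settings, and without the block edgeR kept only Mcl1 in both comparisons and Bmf against 0 h. Against 0 h, the 7 members called became 2 with no replicate block and 1 with no replicate block and GC and length trends removed, a setting chosen after seeing the data. Against 1 h, the 7 became 1 with no replicate block, 4 with DESeq2 and no replicate block, and 1 with GC and length trends removed and no replicate block. At 1 h against 0 h, the 0 members called became 1 (Bid) with DESeq2 and the block, with library totals, with no filter on low counts, and with GC and length trends removed and the block. Leaving out libraries gave 0 to 1 members at 1 h against 0 h and 4 to 7 at 6 h against 0 h, the 4 without 0 h replicate 2. It gave 5 to 6 at 6 h against 1 h, so that none of the 12 such fits kept all 7. With the longest transcript as length, the share of Mcl1 at 0 h was 31.4% in place of 39.3%. The causes were not tested.

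Differences that were near 0 and not called changed sign. With GC and length trends removed (with and without the block), 1 h against 0 h became 0.01 and 0.01 for Bcl2, 0.01 and 0.00 for Bcl2l11, and -0.03 and -0.03 for Bbc3, and 6 h against 0 h became -0.03 and -0.03 for Bad and -0.01 and -0.01 for Bak1. With library totals, 6 h against 1 h became 0.02 for Bad and 0.03 for Bid, and 6 h against 0 h became 0.01 for Bax. With no filter on low counts it became 0.00 for Bax, and 6 h against 1 h became 0.00 for Bid, as with a mean of at least 1 CPM. Leaving out libraries gave, at 1 h against 0 h, -0.09 to 0.02 for Bcl2, -0.06 to 0.00 for Mcl1 and -0.08 to 0.02 for Bcl2l11. At 6 h against 0 h it gave -0.02 to 0.15 for Bad and -0.04 to 0.05 for Bax, and at 6 h against 1 h -0.12 to 0.08 for Bad and -0.05 to 0.05 for Bid. With GC and length trends removed and the block, Bax was called lower at 6 h against 0 h (adjusted p = 0.0471).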
